A study of Mus musculus with 61 samples.

Results

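The 10 genes described here carry glucose into the cell and break it down to lactate. They are the glucose transporters Slc2a1 and Slc2a3, the glycolytic enzymes Hk2, Gpi1, Tpi1, Gapdh, Eno1 and Pkm, and the lactate dehydrogenase subunits Ldha and Ldhb. They were found by symbol. All 10 were found among the 24551 genes of a count table of mouse oocytes and embryos and among the 22911 genes of a second table of embryos of different Klf17 genotypes. All 10 passed the filter on low counts in both, which left 16234 and 16694 genes to test.

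The libraries were made by SLAM-seq, in which cells are fed the uridine analog 4-thiouridine (4SU) and alkylation of the 4SU in their RNA then leaves T-to-C changes in the reads. The first table holds 30 libraries of wild-type (WT) material, 3 for each of 10 groups. These are metaphase II (MII) oocytes and embryos made by in vitro fertilisation and labelled for 6 h in windows that ended at 6, 12, 18, 24, 30, 36, 54, 76 or 96 hours post insemination (hpi). The second table holds 11 libraries of embryos collected at the stage that the design text calls M2C. They comprise 3 libraries labelled Klf17 KO (KO), 3 labelled Klf17 maternal KO (mKO), 2 labelled Klf17 paternal KO (pKO) and 3 WT controls (ctrl). All groups of both tables, MII oocytes and genotypes included, were exposed to 2 mM 4SU for 6 h. The design text states 10 embryos per library for the staged embryos, so a library is a pool. It gives no such number for MII oocytes or for the genotypes. Strain, age, the Klf17 allele and whether replicates came from separate matings are not given in the sources used here, so a p-value speaks only of how much these libraries vary. Every level below is in CPM (read counts scaled to a common library size) and describes a share of the RNA counted in a pool. RNA held by fewer embryos of the pool and less RNA in each embryo cannot be told apart. A share can also change when other RNAs change, so no level or fold change is an amount per embryo. Whether the counted reads were limited to those with T-to-C changes is not given either, so a level is not called new or inherited RNA.

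Glucose enters mammalian cells by facilitated diffusion through transporters of the SLC2A family. SLC2A1 (GLUT1) serves many tissues, and SLC2A3 (GLUT3) is a high-affinity transporter. Hexokinase traps the sugar as glucose-6-phosphate, and the following enzymes convert it to pyruvate. Lactate dehydrogenase, a tetramer of A and B subunits, interconverts pyruvate and lactate. Subunits of the A type are associated with the making of lactate and those of the B type with its use. The early mouse embryo is known to depend on pyruvate and lactate and to use glucose more as it becomes a blastocyst.

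Library totals ranged between 7395193 and 13301570 counts in the WT series and between 14080264 and 23018252 counts in the genotype libraries. The 10 genes together held between 0.0838% and 0.383% of a library in the WT series, with the lowest share at 48-54hpi and the highest at 90-96hpi. Stage markers differed between the ends of the WT series. The summed level of 7 oocyte markers was between 2.22 and 70.8 CPM at 90-96hpi and between 9220 and 9337 CPM in MII oocytes, and that of 8 blastocyst markers was between 5596 and 9132 CPM at 90-96hpi and between 3.20 and 10.7 CPM in MII oocytes. Markers of cumulus and granulosa cells, which surround the egg and are rich in glycolytic enzymes, summed to between 111 and 132 CPM at 0-6hpi and to between 154 and 174 CPM in MII oocytes, with 1 (Amhr2) and 5 (Tnfaip6, Ptx3, Foxl2, Amhr2 and Fshr) of the 11 at 0. Their sum was between 111 and 138 CPM at 12-18hpi, between 41.7 and 51.5 CPM at 48-54hpi and between 4.48 and 7.31 CPM at 90-96hpi. Which cells held this RNA was not tested. Mitochondrially encoded genes took between 5.92% and 11.4% of counts in the libraries labelled KO and between 3.23% and 4.18% in ctrl libraries.

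Across the WT series, 9 of the 10 genes differed between the ends of the time course. In 90-96hpi embryos against MII oocytes 8 of the 10 genes rose and 1, Ldhb, fell, where 42.6% of all tested genes rose and 38.4% fell, 81.0% in all. The median log2 fold change of the 10 genes was 4.79, against 0.27 over all genes. Slc2a1 was at almost the same level at both ends. All calls are from edgeR's quasi-likelihood test with Benjamini-Hochberg adjustment over all genes, at an adjusted p below 0.05. All 9 remained called when any 1 library of either group was left out.

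**Figure D1:**
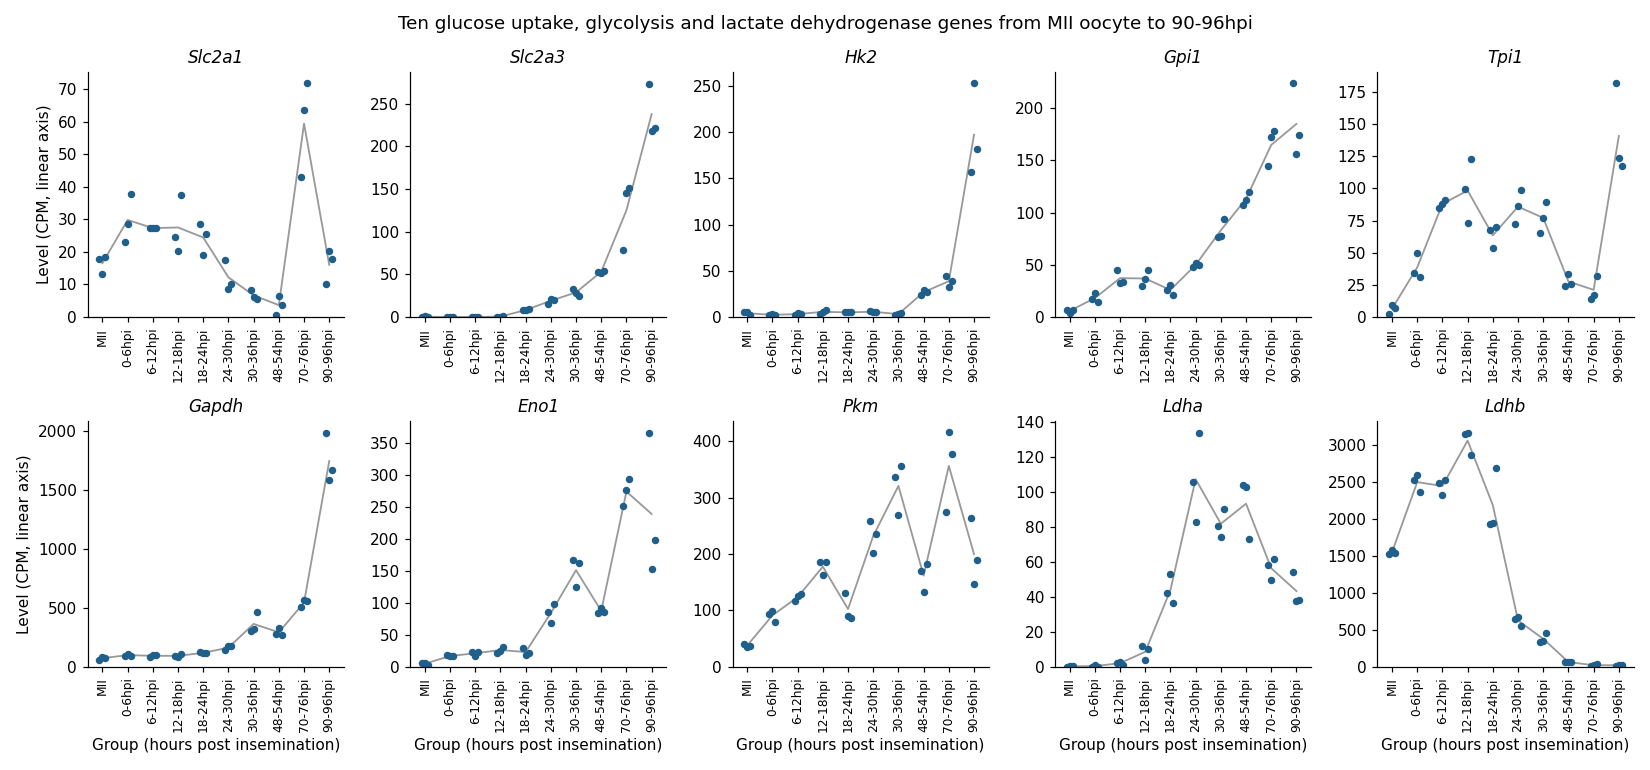
Level of each of the 10 genes in each of the 30 WT libraries (points; CPM, linear axis with its own scale in each panel), with a line through the group means, in order of time. Slc2a3, Hk2, Gpi1, Tpi1 and Gapdh have their highest mean at 90-96hpi, while Ldhb is highest at 12-18hpi, at 3054 CPM on average, and averages 17.9 CPM at 90-96hpi.

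The steps between neighbouring groups differed in how many of the genes moved. In 0-6hpi embryos against MII oocytes, 5 of the 10 rose and 0 fell, where 12.9% of all genes rose and 8.28% fell, 21.2% in all. The 5 were Gpi1, Tpi1, Gapdh, Eno1 and Pkm, all enzymes between the hexokinase step and pyruvate. At 6-12hpi against 0-6hpi, 3 rose (Gpi1, Tpi1 and Ldha) and 0 fell, against 4.73% and 2.93% of all genes (7.66% in all). At 12-18hpi against 6-12hpi, 2 rose (Pkm and Ldha) and 0 fell, against 7.11% and 6.09% (13.2% in all). No member was called lower in these 3 steps. The median log2 fold change of the 10 genes was 0.97, 0.38 and 0.32 in these 3 steps, against 0.03, 0.06 and 0.12 over all genes.

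Directions were mixed from 18 h on. At 18-24hpi against 12-18hpi, 2 of the 10 rose (Slc2a3 and Ldha) and 2 fell (Gpi1 and Pkm), where 18.1% of all genes rose and 14.9% fell, 33.0% in all. At 24-30hpi against 18-24hpi, 6 rose and 2 fell (Slc2a1 and Ldhb), against 21.0% and 24.4% of all genes (45.4% in all). At 30-36hpi against 24-30hpi, 5 rose and 1 (Hk2) fell, against 21.0% and 29.0% (49.9% in all). The medians in these 3 steps were -0.18, 0.71 and 0.16 for the 10 genes and 0.00, -0.12 and -0.22 for all genes.

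At 48-54hpi against 30-36hpi, 3 of the 10 rose (Slc2a3, Hk2 and Gpi1) and 4 fell (Tpi1, Eno1, Pkm and Ldhb), where 28.7% of all genes rose and 33.3% fell, 62.0% in all. At 70-76hpi against 48-54hpi, 6 rose and 1 (Ldhb) fell, against 21.6% and 21.8% (43.4% in all). At 90-96hpi against 70-76hpi, 4 rose (Slc2a3, Hk2, Tpi1 and Gapdh) and 2 fell (Slc2a1 and Pkm), against 20.1% and 19.5% (39.6% in all). The medians were -0.55, 0.72 and 0.05 for the 10 genes and -0.19, 0.00 and 0.07 for all genes. The share of all calls that were rises moved by over 10 percentage points with the scaling at 5 steps. It was 60.9% at 0-6hpi, with 49.4% under DESeq2 size factors and 78.3% under scaling by total counts. Under total counts it was 43.5% in place of 53.8% at 12-18hpi, 69.0% in place of 46.3% at 24-30hpi, 32.5% in place of 46.2% at 48-54hpi and 61.7% in place of 49.8% at 70-76hpi.

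**Figure D2:**
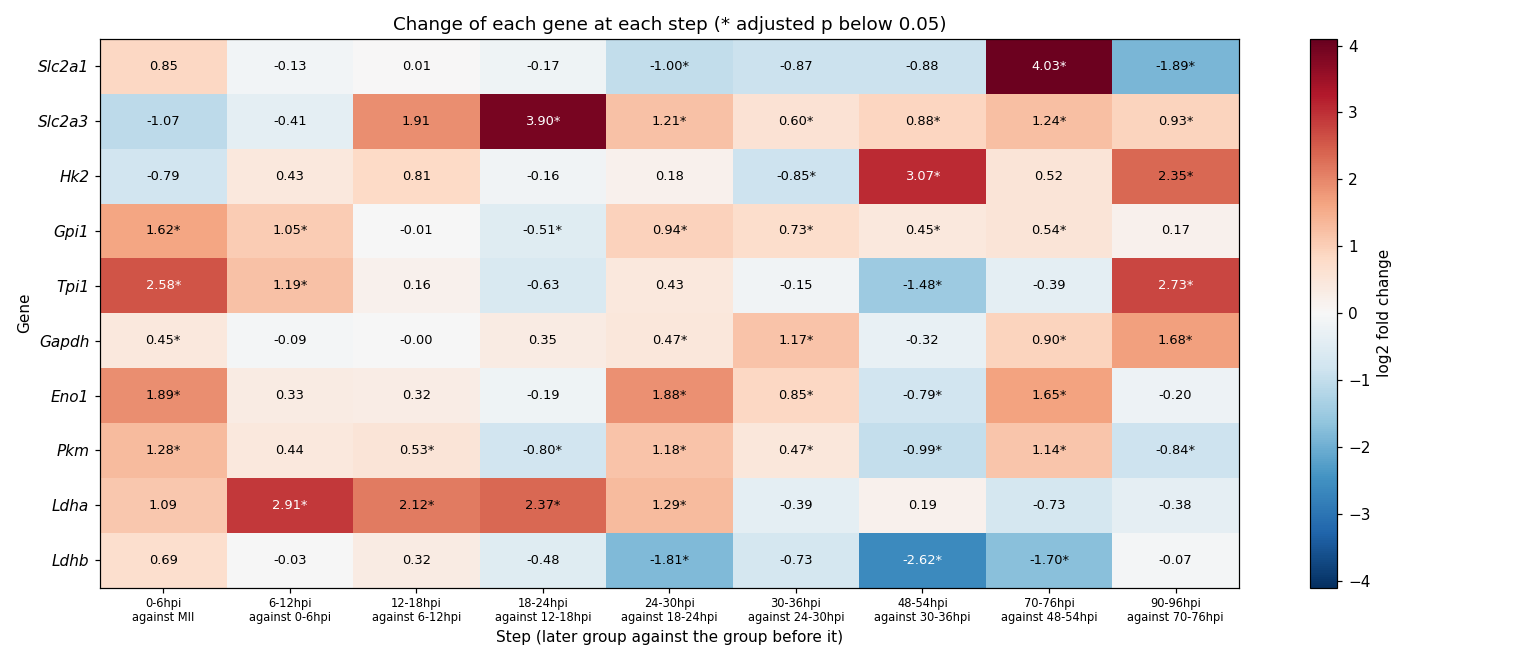
Log2 fold change of each gene (rows) at each of the 9 steps, the later group over the group before it (columns), in red where higher and blue where lower in the later group. An asterisk marks an adjusted p below 0.05, as for the 4.03 of Slc2a1 at 70-76hpi and the -2.62 of Ldhb at 48-54hpi.

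The order of both transporters changed along the series. Slc2a1 was the more abundant of both in MII oocytes, where Slc2a3 was near 0, and Slc2a3 was the more abundant of both, per length, at 30-36hpi, 48-54hpi and 90-96hpi. Slc2a3 rose at every step from 18-24hpi on, while Slc2a1 peaked in a single window, 70-76hpi.

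Slc2a3 (GRCm38 chr6:122727809-122802363) had only 2, 7 and 2 reads in the MII libraries. MII oocytes held 0.212, 0.771 and 0.221 CPM of it, 0-6hpi embryos 0.0906, 0.206 and 0.251 CPM, 6-12hpi embryos 0.310, 0.0946 and 0 CPM and 12-18hpi embryos 0.241, 0.477 and 0.873 CPM. These groups overlapped, and 3 reads or fewer in a library give no level. At 18-24hpi the libraries held 8.16, 7.72 and 8.88 CPM, all above every earlier library. The means then were 19.1 ± 3.01 CPM at 24-30hpi, 28.9 ± 3.94 at 30-36hpi, 53.1 ± 1.25 at 48-54hpi, 125 ± 40.6 at 70-76hpi and 238 ± 31.0 at 90-96hpi (SD, n = 3 each). Neighbouring groups did not overlap in any of these steps.

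The first rise of Slc2a3, at 18-24hpi against 12-18hpi, had a log2 fold change of 3.90 (standard error 0.39, adjusted p = 3.51e-10), or 4.49 without 12-18hpi replicate 3. The next steps gave 1.21 (standard error 0.24, adjusted p = 0.000105), 0.60 (standard error 0.23, adjusted p = 0.027), 0.88 (standard error 0.22, adjusted p = 0.000818), 1.24 (standard error 0.22, adjusted p = 1.58e-05) and 0.93 (standard error 0.21, adjusted p = 0.000635). The rise at 30-36hpi was lost without replicate 1 of that window (adjusted p = 0.104). The rise at 48-54hpi was lost without replicate 3 of that window (adjusted p = 0.061) and under scaling by total counts (adjusted p = 0.106). From end to end, 6360 reads at 90-96hpi stood against 11 reads in MII oocytes, a ratio of 596 after scaling with a 95% exact interval of 333 to 1194 that covers counting error only. Its fitted log2 fold change was 9.17 (adjusted p = 1.46e-22), or 10.12 without MII replicate 2, the library with 7 of the 11 reads.

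Slc2a1 (chr4:119108745-119137330) followed another course. Its level was 17.8, 13.3 and 18.5 CPM in MII oocytes. It averaged between 24.4 and 29.8 CPM in the 4 windows up to 18-24hpi. It was then 12.2 ± 4.81 CPM at 24-30hpi and 6.67 ± 1.49 CPM at 30-36hpi. The 48-54hpi libraries held 0.749, 6.56 and 3.68 CPM, with 8, 63 and 33 reads. At 70-76hpi the libraries held 42.8, 63.5 and 71.7 CPM, and at 90-96hpi 10.1, 20.2 and 17.9 CPM. All 3 libraries of 70-76hpi lay above every other library of the series.

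The rise at 70-76hpi against 48-54hpi had a log2 fold change of 4.03 (standard error 0.41, adjusted p = 7.72e-10), and between 3.55 and 4.76 with 1 library left out, the highest without 48-54hpi replicate 2. Slc2a1 fell at 90-96hpi against 70-76hpi (log2 fold change -1.89, standard error 0.36, adjusted p = 7.67e-05). It also fell at 24-30hpi against 18-24hpi (standard error 0.36, adjusted p = 0.0241). That call did not hold once any 1 library of 18-24hpi, or replicate 2 or 3 of 24-30hpi, was left out (adjusted p up to 0.229), and under total counts (adjusted p = 0.213). The lower values at 30-36hpi and 48-54hpi were not called (adjusted p = 0.0543 and 0.064). The first passed without replicate 2 of 24-30hpi or 1 of 30-36hpi (adjusted p down to 0.0341) and the second without replicate 2 or 3 of 48-54hpi (down to 0.00106). The first was also called without the filter on low counts (adjusted p = 0.0185), and the second under 4 of 7 other settings (down to 0.00562). The value at 0-6hpi against MII was not called (0.85, adjusted p = 0.0913) but was under 3 of 7 other settings (down to 0.00874), and 90-96hpi against MII gave -0.04 (standard error 0.36, adjusted p = 0.922).

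Within each library the share of Slc2a1 in the reads per base of both transporters does not depend on the scaling. With 0.5 added to each count, it was 98.4 ± 1.36% in MII oocytes (SD, n = 3) and 98.9% on average at 12-18hpi. It was 84.7 ± 2.27% at 18-24hpi, 53.8 ± 12.9% at 24-30hpi, 30.6 ± 1.89% at 30-36hpi and 11.4 ± 8.43% at 48-54hpi. At 70-76hpi it was 48.2 ± 2.82%, with all 3 libraries between 45.7% and 51.2%, and at 90-96hpi 11.7 ± 4.48%. The order of the groups was therefore not one-way. Of 9 other glucose transporters in the table, 7 were tested. At 90-96hpi against MII, 2 of them rose (Slc2a8 and Slc2a4) and 3 fell (Slc2a9, Slc2a10 and Slc2a12). Of all genes, 42.6% rose and 38.4% fell there (81.0% in all). The median log2 fold change of these transporters was -1.66, against 0.27 over all genes. Slc2a8, an intracellular glucose transporter, was also highest at 70-76hpi, at 122 ± 5.09 CPM there and 34.0 ± 5.10 CPM at 48-54hpi (log2 fold change 1.84, standard error 0.33, adjusted p = 2.07e-05).

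**Figure D3:**
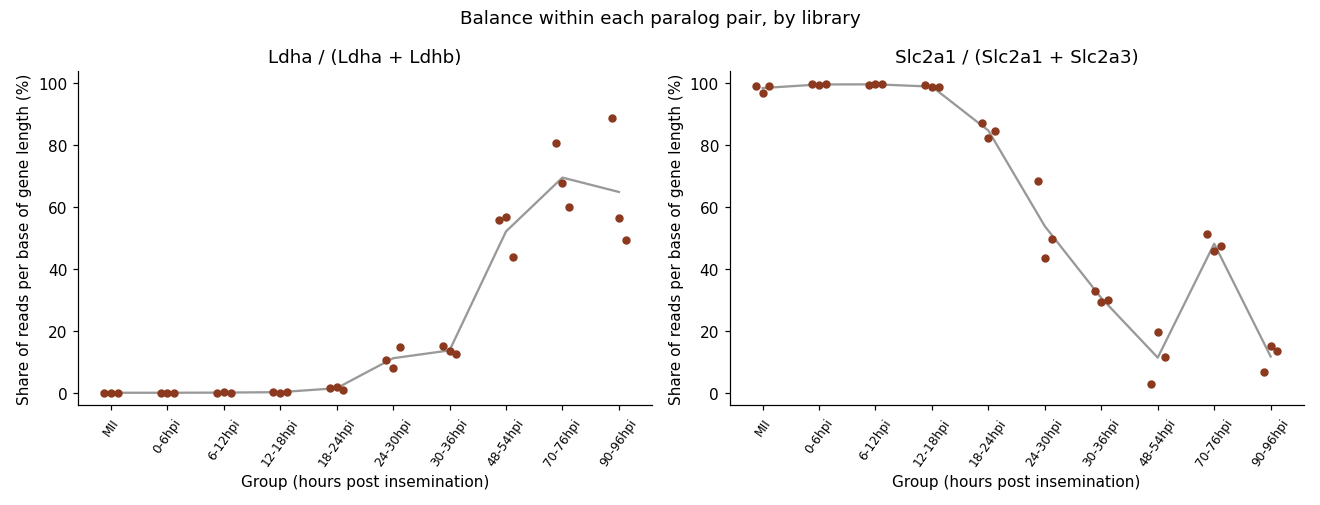
Share of Ldha in the reads per base of Ldha and Ldhb (left) and of Slc2a1 in those of Slc2a1 and Slc2a3 (right), in percent, for each WT library (points) with a line through the group means. Shares were computed with 0.5 added to each count. The Ldha share averages 0.202% at 12-18hpi and 52.1% at 48-54hpi, and the Slc2a1 share is lower at 48-54hpi (11.4%) than at 70-76hpi (48.2%).

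Hk2, hexokinase 2, which phosphorylates glucose on entry, was a low transcript up to 30-36hpi and then rose at 2 of the 3 remaining steps. The libraries of the first 7 groups lay between 1.92 and 7.199 CPM. At 48-54hpi they held 24.1, 29.8 and 27.0 CPM, at 70-76hpi 44.8, 32.3 and 39.3 CPM and at 90-96hpi 157, 253 and 182 CPM. None of these 3 groups overlapped another.

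The rise of Hk2 at 48-54hpi against 30-36hpi had a log2 fold change of 3.07 (standard error 0.29, adjusted p = 2.8e-11) and that at 90-96hpi against 70-76hpi 2.35 (standard error 0.26, adjusted p = 2.97e-09). The step between them gave 0.52 (standard error 0.25, adjusted p = 0.0888), called under 3 of 7 other settings (down to 0.0133). Hk2 fell at 30-36hpi against 24-30hpi (-0.85, standard error 0.30, adjusted p = 0.0186). It did not hold once replicate 1 of 24-30hpi, or 1 or 2 of 30-36hpi, was left out (adjusted p up to 0.195) and in a fit of these 2 groups alone (adjusted p = 0.158). Hk1, a hexokinase of the brain and red cell, had another course, with 0 reads in MII oocytes, 5.27 ± 0.641 CPM at 30-36hpi, 67.4 ± 14.5 CPM at 48-54hpi, 18.7 ± 6.21 CPM at 70-76hpi and 2.39 ± 1.17 CPM at 90-96hpi. Hk1 was picked after its values were seen.

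The promoter of Hk2 (chr6:82774405-82774704, minus strand, GRCm38.p6, from RefSeq, 250 bases before to 50 after the start) is shown because Hk2 made the largest rise after 30-36hpi among the 6 enzymes of glycolysis described here. Capitals mark ACGTG, one form of the core of the hypoxia response element, on either strand, so that CACGT is its reverse complement. Other forms of the core were not searched for.
Hk2: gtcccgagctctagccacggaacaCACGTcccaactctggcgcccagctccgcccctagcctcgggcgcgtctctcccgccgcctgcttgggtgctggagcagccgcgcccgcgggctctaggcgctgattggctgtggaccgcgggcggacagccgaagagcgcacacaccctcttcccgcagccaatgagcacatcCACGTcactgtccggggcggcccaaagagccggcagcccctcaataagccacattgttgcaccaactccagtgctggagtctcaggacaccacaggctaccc
The window holds 2 such stretches. ACGTG occurs on either strand in 19.6% of 32851 RefSeq windows of this length, and CACGTG, the E-box that contains it, in 7.15%. Counted by gene, with any window of the gene, the shares are 21.8% and 8.09% of 27025 genes. A window was found for 9 of the 10 genes, 13 windows in all, with none for Slc2a3. ACGTG also occurs in the windows of Slc2a1, Gapdh, the second of Pkm and the first of Ldha, and these letters are not in those of Gpi1, Tpi1, Eno1 and Ldhb. A match is a description of the sequence and says nothing of a factor.

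The 5 enzymes described here between hexokinase and pyruvate were all called higher at 0-6hpi than in MII oocytes, Gapdh only in part of the settings given below. Of 18 other glycolytic enzymes tested, 2 rose and 0 fell at this step, where 12.9% of all genes rose and 8.28% fell. The median log2 fold change of the 18 was 0.03, as over all genes. Gpi1 converts glucose-6-phosphate to fructose-6-phosphate. Tpi1 interconverts the triose phosphates, and Gapdh oxidises one of them. Eno1 makes phosphoenolpyruvate, and Pkm turns it into pyruvate. Levels of Gapdh and Eno1, and of Ldha below, carry an added uncertainty, because these genes have near-identical processed copies and the handling of reads that map to several places is not given in the sources used here.

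Tpi1 (chr6:124810586-124814158) made the largest of the early rises. It stood at 34.5, 49.8 and 31.4 CPM at 0-6hpi, against 2.34, 9.69 and 7.29 CPM in MII oocytes, a log2 fold change of 2.58 (standard error 0.32, adjusted p = 4.44e-07). The groups did not overlap. At 6-12hpi it rose again, with 84.7, 87.8 and 91.2 CPM (log2 fold change 1.19, standard error 0.28, adjusted p = 0.00528). Leaving out replicate 3 of 0-6hpi ended this call (adjusted p = 0.0579). Its means lay between 63.6 and 98.4 CPM from 6-12hpi to 30-36hpi. Tpi1 then fell to 23.9, 33.3 and 25.8 CPM at 48-54hpi, against 65.6, 76.6 and 89.0 CPM at 30-36hpi (-1.48, standard error 0.29, adjusted p = 4.62e-05). It was 14.4, 17.4 and 31.7 CPM at 70-76hpi and 182, 123 and 117 CPM at 90-96hpi. The last step was the largest rise of Tpi1 between neighbouring groups (2.73, standard error 0.30, adjusted p = 9.74e-09). The 70-76hpi and 48-54hpi libraries overlapped (-0.39, adjusted p = 0.302, or 0.0371 without 70-76hpi replicate 3).

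Gapdh (chr6:125161852-125166467) rose late. Its means were 71.3 ± 13.5 CPM in MII oocytes, 97.2 ± 9.73 at 0-6hpi and between 91.2 and 116 in the next 3 windows. The small rise at 0-6hpi (log2 fold change 0.45, standard error 0.15, adjusted p = 0.0294) did not hold once replicate 1 or 3 of MII, or 1 or 2 of 0-6hpi, was left out (adjusted p up to 0.225), and with DESeq2 size factors (adjusted p = 0.097). Gapdh then was 161 ± 18.5 CPM at 24-30hpi (0.47, adjusted p = 0.00992), 362 ± 90.2 at 30-36hpi (1.17, adjusted p = 4.31e-08) and 291 ± 29.7 at 48-54hpi (-0.32, adjusted p = 0.0586, and between 0.000861 and 0.61 with 1 library left out). The value at 48-54hpi was called lower once any 1 library other than 30-36hpi replicate 3 was left out, and under 4 of 7 other settings (adjusted p down to 3.98e-06). The mean was 543 ± 35.4 at 70-76hpi (0.90, adjusted p = 4.44e-06). At 90-96hpi the libraries held 1985, 1582 and 1668 CPM, far above every earlier library, with a log2 fold change of 1.68 over 70-76hpi (standard error 0.15, adjusted p = 3.17e-11).

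Gpi1 (chr7:34201327-34230336) climbed with one interruption. Its means were 5.87 ± 1.75 CPM in MII oocytes, 18.1 ± 4.62 at 0-6hpi (log2 fold change 1.62, standard error 0.23, adjusted p = 1.31e-06) and 37.3 ± 6.86 at 6-12hpi (1.05, standard error 0.20, adjusted p = 0.000376). They were 36.9 ± 7.75 at 12-18hpi and 25.9 ± 4.58 at 18-24hpi (-0.51, adjusted p = 0.0447). The fall at 18-24hpi did not hold once replicate 2 or 3 of 12-18hpi, or 1 or 3 of 18-24hpi, was left out (adjusted p up to 0.326), nor under each of the 7 other settings tried (adjusted p up to 0.134). Gpi1 then rose to 49.9 ± 1.79 at 24-30hpi (0.94, adjusted p = 0.000158) and 83.0 ± 9.75 at 30-36hpi (0.73, adjusted p = 0.00152). The means after that were 113 ± 6.15, 165 ± 17.9 and 185 ± 34.8 CPM at 48-54hpi, 70-76hpi and 90-96hpi. The rise at 48-54hpi (0.45, adjusted p = 0.0375) did not hold once replicate 1 or 2 of 30-36hpi, or any library of 48-54hpi, was left out (adjusted p up to 0.766), and under total counts the value was -0.030. The rise at 70-76hpi (0.54, adjusted p = 0.0172) did not hold once replicate 1 or 2 of 48-54hpi, or 2 or 3 of 70-76hpi, was left out (adjusted p up to 0.0677).

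Eno1 (chr4:150236708-150248879) rose in 4 steps and fell in 1. At 0-6hpi it averaged 16.6 ± 1.24 CPM, and in MII oocytes 4.45 ± 1.52 CPM (log2 fold change 1.89, standard error 0.28, adjusted p = 3.68e-06). It averaged 84.0 ± 15.4 CPM at 24-30hpi and 22.8 ± 5.67 CPM at 18-24hpi (1.88, standard error 0.23, adjusted p = 4.59e-08). The mean was 151 ± 22.6 CPM at 30-36hpi (0.85, adjusted p = 0.00163), 87.3 ± 3.56 at 48-54hpi (-0.79, adjusted p = 0.00217) and 275 ± 20.8 at 70-76hpi (1.65, adjusted p = 1.9e-07). The 90-96hpi libraries held 367, 153 and 198 CPM and overlapped the group before (-0.20, adjusted p = 0.504). Replicate 1 stood above the other libraries of its group, and without it the value at 90-96hpi was called lower (adjusted p = 0.0172).

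Pkm (chr9:59656576-59679372) was the least changed of the rising enzymes from end to end, with 199.6 ± 58.9 CPM at 90-96hpi and 37.3 ± 2.57 CPM in MII oocytes (log2 fold change 2.42, standard error 0.19, adjusted p = 3.38e-14). The table counts the gene as a whole, so its M1 and M2 splice forms are not told apart. Pkm alternated between rises and falls. It rose at 0-6hpi to 90.8 ± 10.1 CPM (1.28, standard error 0.18, adjusted p = 1.96e-06) and was 177 ± 13.6 CPM at 12-18hpi. The call at 12-18hpi (0.53, adjusted p = 0.0408) was lost without any 1 of the 6 libraries (adjusted p between 0.0986 and 0.293) and under total counts (adjusted p = 0.0984). Pkm fell to 102 ± 24.3 CPM at 18-24hpi (-0.80, adjusted p = 0.000483), then rose to 232 ± 28.1 at 24-30hpi (1.18, adjusted p = 1.14e-06) and 321 ± 45.8 at 30-36hpi (0.47, adjusted p = 0.0241). The last of these calls did not hold once replicate 2 of 24-30hpi, or 1 or 3 of 30-36hpi, was left out (adjusted p up to 0.115). Pkm fell to 161 ± 26.7 at 48-54hpi (-0.99, adjusted p = 8.15e-06), rose to 356 ± 73.0 at 70-76hpi (1.14, adjusted p = 1.7e-06) and fell again at 90-96hpi (-0.84, adjusted p = 0.000194). Gpi1, Gapdh, Eno1 and Pkm were all called higher at 24-30hpi, 30-36hpi and 70-76hpi.

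The RNAs of both lactate dehydrogenase subunits changed in opposite directions between the ends of the series. Ldhb was the most abundant of the 10 genes per length in MII oocytes, at 1186 CPM per kb of transcript, against 21.7 for Gapdh, the next. Ldha was near 0 there and rose in each window between 6-12hpi and 24-30hpi. Ldhb fell at 3 later steps, and both were of like level at 48-54hpi.

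Ldhb (chr6:142490249-142507957) held 1526, 1582 and 1531 CPM in MII oocytes. It averaged 2493 ± 117 CPM at 0-6hpi, 2440.5 ± 112 at 6-12hpi and 3054 ± 170.4 at 12-18hpi. All 3 libraries of 0-6hpi were above all of MII, but the value was not called (log2 fold change 0.69, standard error 0.33, adjusted p = 0.154). A fit of these 2 groups alone called it (adjusted p = 4.14e-06), as did the fit without the filter on low counts (adjusted p = 6.29e-05). The 18-24hpi libraries held 1926, 1939 and 2681 CPM (-0.48, adjusted p = 0.284), below those of 12-18hpi, and were called by both of these alternatives (down to 0.00253).

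The falls of Ldhb began at 24-30hpi, where the libraries held 649.6, 669 and 550.2 CPM (log2 fold change -1.81, standard error 0.34, adjusted p = 0.000149). The 30-36hpi libraries held 326, 340.5 and 459 CPM (-0.73, standard error 0.33, adjusted p = 0.0708), did not overlap the group before and were called by both alternatives (down to 2.12e-05). At 48-54hpi they held 59.1, 56.6 and 66.9 CPM (-2.62, standard error 0.35, adjusted p = 1.28e-06) and at 70-76hpi 9.94, 16.8 and 29.3 CPM (-1.70, standard error 0.36, adjusted p = 0.000565). At 90-96hpi the libraries held 4.88, 21.0 and 27.8 CPM and overlapped those of 70-76hpi (-0.07, adjusted p = 0.934). From end to end the log2 fold change was -6.44 (standard error 0.42, adjusted p = 4.17e-12). The summed oocyte markers varied between 2.22 and 70.8 CPM over the same 90-96hpi libraries, and their part in the Ldhb level there was not tested.

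Ldha (chr7:46842274-46855627) had 0, 2 and 1 reads in the MII libraries and 0, 8 and 0 reads at 0-6hpi. At 6-12hpi it had 20, 30 and 8 reads, or 2.06, 2.84 and 0.841 CPM. The 58 reads at 6-12hpi against 3 in MII oocytes give a ratio of 17.9 after scaling, with a 95% exact interval of 5.83 to 89.3 for counting error only. Against 0-6hpi the ratio was 7.97 (3.79 to 19.3), called with an adjusted p = 0.00672. It did not hold once replicate 3 of 0-6hpi, or 2 of 6-12hpi, was left out (adjusted p up to 0.0667), and the fitted log2 fold change was 2.91. It was 7.18 without replicate 2 of 0-6hpi, the one library of that group with reads, 2.23 without replicate 3 and near that without replicate 1.

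The later rises of Ldha rested on more reads. The 12-18hpi libraries had 96, 31 and 93 reads, or 11.6, 3.70 and 10.1 CPM, all above every 6-12hpi library (log2 fold change 2.12, standard error 0.42, adjusted p = 0.000539). At 18-24hpi they held 42.0, 53.0 and 36.4 CPM (2.37, standard error 0.34, adjusted p = 1.43e-06) and at 24-30hpi 106, 82.7 and 134 CPM (1.29, standard error 0.31, adjusted p = 0.000928). The means then stayed between 81.8 and 93.3 CPM up to 48-54hpi. They were 56.3 ± 6.21 CPM at 70-76hpi (-0.73, adjusted p = 0.0521, or 0.0431 without 48-54hpi replicate 3 and down to 0.0017 in 3 of 7 other settings) and 43.2 ± 9.37 CPM at 90-96hpi (-0.38, adjusted p = 0.353). Against MII oocytes, 1158 reads at 90-96hpi stood against 3, a ratio of 398 (136 to 1932), called with an adjusted p = 3.4e-14. Leaving out MII replicate 2, with 2 of the 3 reads, moved the fitted log2 fold change to 9.43, against 8.47.

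The share of Ldha in the reads per base of both subunits was computed with 0.5 added to each count. It was 0.00759 ± 0.00500% in MII oocytes, 0.00894 ± 0.0133% at 0-6hpi and 0.0587 ± 0.0321% at 6-12hpi. A library with 0 Ldha reads takes its share from the added 0.5 alone, so the values in MII oocytes and at 0-6hpi give no level. The share was 0.202 ± 0.101% at 12-18hpi, 1.48 ± 0.484% at 18-24hpi, 11.2 ± 3.41% at 24-30hpi and 13.7 ± 1.34% at 30-36hpi (SD, n = 3 each). At 48-54hpi the libraries gave 55.8%, 56.6% and 43.9%, at 70-76hpi 80.7%, 67.8% and 60.01% and at 90-96hpi 88.7%, 56.4% and 49.5%. The last 3 groups lay above all earlier libraries, and 48-54hpi and 90-96hpi overlapped. No test was made on these shares.

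The promoters of both subunits are shown because their RNAs moved in opposite directions. Each is the RefSeq window of GRCm38.p6 of 250 bases before to 50 after the start, the first of 2 for Ldha (chr7:46845554-46845853, plus strand) and the only one for Ldhb (chr6:142507908-142508207, minus strand). Capitals mark ACGTG on either strand and the longer CACGTG.
Ldha: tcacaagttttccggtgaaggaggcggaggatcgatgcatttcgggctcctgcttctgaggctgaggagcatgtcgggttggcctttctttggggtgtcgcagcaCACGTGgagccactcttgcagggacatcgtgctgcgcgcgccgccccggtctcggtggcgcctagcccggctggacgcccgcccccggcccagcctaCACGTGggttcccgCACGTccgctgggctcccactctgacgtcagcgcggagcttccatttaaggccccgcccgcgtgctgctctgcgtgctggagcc
Ldhb: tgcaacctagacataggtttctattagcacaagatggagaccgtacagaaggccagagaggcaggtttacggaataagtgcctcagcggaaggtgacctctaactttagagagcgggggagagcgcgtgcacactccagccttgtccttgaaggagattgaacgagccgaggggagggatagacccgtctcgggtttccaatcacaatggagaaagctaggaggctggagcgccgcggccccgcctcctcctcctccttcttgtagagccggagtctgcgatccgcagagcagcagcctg
The Ldha window holds 3 stretches, of which 2 are CACGTG, and the Ldhb window holds no ACGTG on either strand. Other forms of the core were not searched for, so these are not counts of response elements.

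Per length, the order of the 10 genes changed as well. In MII oocytes Ldhb (1186 CPM per kb) was followed by Gapdh (21.7), Pkm (15.3), Slc2a1 (5.07) and Tpi1 (4.01). At 90-96hpi Gapdh led with 531 CPM per kb, followed by Eno1 (118), Tpi1 (87.6), Pkm (82.1) and Gpi1 (57.9). Slc2a3 (38.0), Hk2 (35.8), Ldha (23.8), Ldhb (13.7) and Slc2a1 (4.92) came last. At 90-96hpi each gene overlapped its neighbour in this order over the 3 libraries, except Gapdh with Eno1 and Gpi1 with Slc2a3. In MII oocytes Slc2a1 and Tpi1 overlapped.

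As a description over the 10 group means on the log2(CPM + 1) scale, the most alike pair of the 10 genes was Gpi1 and Eno1 (Pearson r = 0.962), and the least alike Slc2a3 and Ldhb (r = -0.927). Among 8994 genes with at least 20 CPM in their highest group, the nearest to Slc2a1 were Gclm (0.951) and Pgap1 (0.908) and to Slc2a3 Marcksl1 (0.995) and Dnase2a (0.993). Those nearest to Ldha were Dpagt1 (0.986) and Prdx4 (0.985), and to Ldhb Stau1 (0.997) and Magea10 (0.996). The 10 points share the libraries and the order of development.

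Of 22 other enzymes of glycolysis in the table, 18 were tested, and 9 of these rose and 2 fell at 90-96hpi against MII, with a median log2 fold change of 2.00, against 0.27 over all genes, of which 42.6% rose and 38.4% fell. At 24-30hpi 6 rose and 0 fell, against 21.0% and 24.4% of all genes (45.4% in all). At 48-54hpi 6 rose and 5 fell, against 28.7% and 33.3% (62.0% in all). Aldoa, an aldolase, had the lowest adjusted p, at 1057 ± 229 CPM at 90-96hpi and 6.01 ± 1.51 CPM in MII oocytes (log2 fold change 7.46, standard error 0.21, adjusted p = 1.35e-26), and already rose at 0-6hpi to 24.1 ± 1.26 CPM (2.00, adjusted p = 3.75e-10). Pgam1, a phosphoglycerate mutase, averaged 53.0 ± 16.6 CPM at 90-96hpi and 8.54 ± 1.67 CPM in MII oocytes (2.63, adjusted p = 2.25e-13). It had been highest at 70-76hpi, at 183 ± 19.2 CPM, and fell at 90-96hpi (-1.78, adjusted p = 4.39e-09). The 2 that fell were Adpgk, which phosphorylates glucose with ADP in place of ATP (-2.41, adjusted p = 3.38e-13), and Bpgm, which makes bisphosphoglycerate in red cells (-8.39, adjusted p = 4.26e-12) and was picked after its values were seen.

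Of 8 carriers of pyruvate and lactate, 7 were tested. At 90-96hpi against MII, 3 rose (Bsg, Mpc2 and Slc16a1) and 3 fell (Mpc1, Emb and Slc16a7), with a median of 1.01. Over all genes, 42.6% rose and 38.4% fell (81.0% in all), with a median of 0.27. Bsg, basigin, the chaperone of monocarboxylate transporters, averaged 369 ± 76.5 CPM at 90-96hpi and 22.3 ± 3.40 CPM in MII oocytes (log2 fold change 4.04, standard error 0.20, adjusted p = 1.22e-19). Mpc2, a subunit of the mitochondrial pyruvate carrier, averaged 101 ± 7.68 CPM at 90-96hpi and 16.0 ± 5.62 CPM in MII oocytes (2.65, adjusted p = 6.22e-15). Of 12 regulators, 11 were tested, and 3 rose (Tigar, Pdk2 and Myc) and 7 fell, against the same shares of all genes. The median of the regulators was -1.75. The kinase Pdk3, which inactivates pyruvate dehydrogenase, averaged 2.80 ± 0.206 CPM at 90-96hpi and 103 ± 1.36 CPM in MII oocytes (-5.19, standard error 0.21, adjusted p = 3.2e-22). Hif1a, the hypoxia-inducible factor that activates many glycolytic genes, averaged 51.6 ± 7.11 CPM at 90-96hpi and 613 ± 51.2 CPM in MII oocytes (-3.57, standard error 0.15, adjusted p = 1.61e-21).

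The pentose phosphate branch draws on glucose-6-phosphate. At 0-6hpi 2 of its 7 genes rose and 2 fell, where 12.9% of all genes rose and 8.28% fell (21.2% in all). The median log2 fold change of the branch was 0.04, against 0.03 over all genes. G6pdx, its first enzyme, averaged 494 ± 48.3 CPM at 0-6hpi and 66.2 ± 10.1 CPM in MII oocytes (log2 fold change 2.90, standard error 0.13, adjusted p = 4.09e-18). It reached 982 ± 54.5 CPM at 12-18hpi and was 15.6 ± 0.669 CPM at 48-54hpi. Taldo1, transaldolase, did the reverse, at 35.2 ± 2.27 CPM at 6-12hpi and 196 ± 18.0 CPM at 0-6hpi (-2.48, adjusted p = 4.43e-14), with 539.6 ± 115 CPM at 90-96hpi. At 90-96hpi against MII, 4 of 7 members of the branch rose (Pgd, Pgls, Tkt and Taldo1) and 2 fell (G6pdx and Rpe), with a median of 0.68. Of 6 gluconeogenic enzymes, 5 were tested, and 3 rose (Fbp2, G6pc3 and Pck2) and 1 fell (Fbp1), with a median of 5.87. Over all genes, 42.6% rose and 38.4% fell in this contrast (81.0% in all), with a median of 0.27. Fbp2, a fructose bisphosphatase, rose at 48-54hpi to 301 ± 42.7 CPM, against 4.14 ± 1.38 CPM at 30-36hpi (6.15, standard error 0.35, adjusted p = 1.07e-13), at the same step as Hk2.

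The genotype libraries ask whether the 10 genes depend on Klf17, a transcription factor of the Kruppel-like family. The label was checked first. Klf17 itself had 673, 603 and 728 CPM in the libraries labelled KO, against 596, 805 and 746 CPM in ctrl libraries (log2 fold change -0.10, standard error 0.30, adjusted p = 0.869), and the groups overlapped. The deleted part of the gene is not given in the sources used here, and a whole-gene count would not show a deletion of a part of it. All 3 contrasts share the ctrl libraries.

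None of the 10 genes was called in any genotype. In the libraries labelled KO against ctrl, 0 of the 10 rose and 0 fell, where 1.82% of all genes rose and 6.31% fell (8.13% in all) by edgeR's test. At an unadjusted p below 0.05 there was 1 member, Gapdh, among 4295 genes, and DESeq2's Wald test called 0 of the 10 and 2592 genes. The count over all genes was 1358 and depended on each library of both groups, with 0 genes called without KO replicate 2 and at most 892 without any other. For mKO against ctrl, 0 of the 10 and 0% of all genes were called (unadjusted 0 and 1243, DESeq2 0 and 32). For pKO the counts were also 0 and 0% (unadjusted 0 and 476, DESeq2 0 and 2). The median log2 fold change of the 10 genes was -0.21 in KO, 0.13 in mKO and 0.04 in pKO, against 0.05, 0.00 and 0.03 over all genes.

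**Figure D4:**
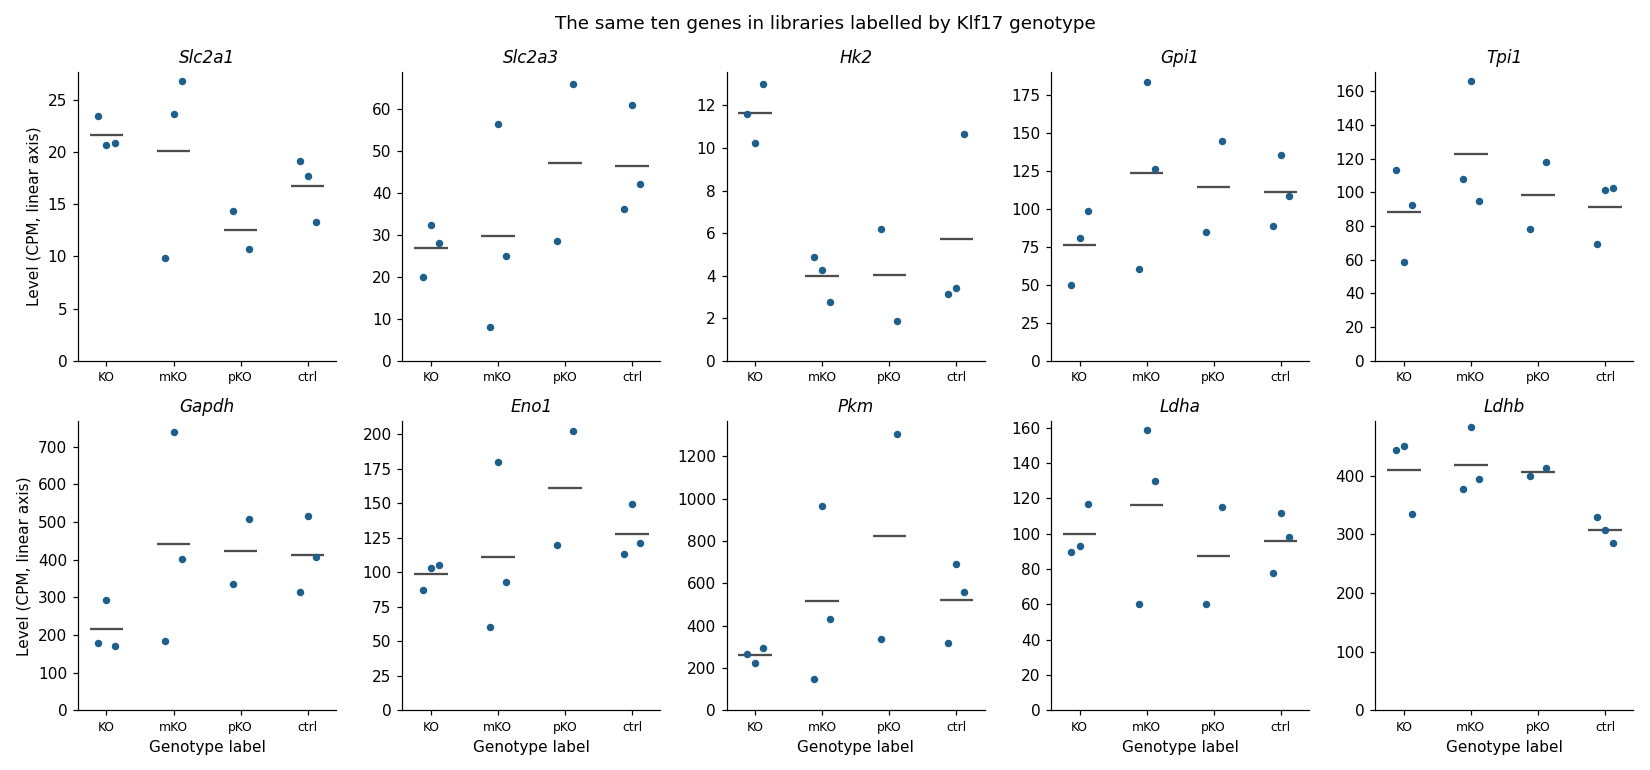
Level of each of the 10 genes in the libraries labelled KO, mKO, pKO and ctrl (points; CPM, linear axis from 0 with its own scale in each panel; bars are group means). The libraries labelled KO lie below ctrl for Gapdh (172 to 293 CPM, against 315 to 516 CPM) and above ctrl for Ldhb, with no gene past the threshold.

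The lowest p in the libraries labelled KO was that of Gapdh. It had 179.8, 293 and 172 CPM in KO, 184, 739 and 402 CPM in mKO, 335 and 509 CPM in pKO and 315, 516 and 406 CPM in ctrl libraries. The KO libraries all lay below the ctrl libraries, and the mKO libraries spanned both. How many of all tested genes had KO and ctrl libraries without overlap was not counted. A lack of overlap, here and below, is therefore not read as a difference between genotypes. The log2 fold change in KO was -0.94 (standard error 0.39, adjusted p = 0.144). It was called without the filter on low counts (adjusted p = 0.0405), with the replicate number as a block (-0.95, adjusted p = 0.0364) and in a fit of KO and ctrl alone (adjusted p = 0.0198).

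Pkm had 266, 222 and 292 CPM in KO, 149, 965 and 430.1 CPM in mKO, 338 and 1308 CPM in pKO and 318, 689 and 559 CPM in ctrl libraries. Again the KO libraries lay below the ctrl libraries without overlap, and the other genotypes spread widely. The log2 fold change in KO was -1.01 (standard error 0.52, adjusted p = 0.238), called without the filter (adjusted p = 0.0239) and in the fit of both groups alone (adjusted p = 0.0165). Slc2a3 was 20.1, 32.4 and 28.0 CPM in KO and 36.3, 61.0 and 42.2 CPM in ctrl libraries (-0.79, standard error 0.51, adjusted p = 0.347).

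Ldhb had 444, 450.1 and 334 CPM in KO, 377, 483 and 395 CPM in mKO, 399 and 413 CPM in pKO and 329, 307 and 285 CPM in ctrl libraries. All libraries of the 3 other genotypes lay above ctrl. The log2 fold change in KO was 0.42 (standard error 0.24, adjusted p = 0.294). The 7 oocyte markers summed to between 3703 and 4186 CPM in KO and between 2017 and 2839 CPM in ctrl libraries, also without overlap. In mKO they summed to between 2495 and 4162 CPM and in pKO to between 2042 and 2469 CPM, both overlapping ctrl. The part of these markers in the Ldhb values, like that of the mitochondrial share given above, was not tested. Ldha overlapped ctrl in KO libraries, with 89.7, 93.2 and 117 CPM, against 77.6, 112 and 98.0 CPM (0.06, standard error 0.35, adjusted p = 0.936).

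The remaining 5 genes had log2 fold changes in KO between -0.54 (Gpi1) and 1.02 (Hk2). Hk2 had 11.6, 10.2 and 13.0 CPM in KO and 3.14, 3.41 and 10.7 CPM in ctrl libraries, where replicate 3 reached the KO range (standard error 0.60, adjusted p = 0.299). Slc2a1 (23.4, 20.7 and 20.9 CPM, against 19.2, 17.7 and 13.3 CPM) and Eno1 (87.1, 103 and 105 CPM, against 113, 149.6 and 121 CPM) did not overlap ctrl but were not called (adjusted p = 0.591 and 0.526). In mKO the 10 values ranged between -0.64 (Slc2a3) and 0.45 (Ldhb), with a lowest adjusted p of 0.701. In pKO they ranged between -0.51 (Hk2) and 0.66 (Pkm), with only 2 libraries and all adjusted p = 1. The standard errors in KO lay between 0.24 (Ldhb) and 0.60 (Hk2).

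Among the other pathway lists, 5 genes were called in the libraries labelled KO, where 8.13% of all genes were, and none in mKO or pKO. Of 12 regulators tested, Pdk3 rose (162 ± 38.1 CPM in KO and 75.1 ± 20.8 CPM in ctrl, log2 fold change 1.11, standard error 0.31, adjusted p = 0.0381). Myc (4.97 ± 1.52 CPM in KO and 33.6 ± 2.28 CPM in ctrl, -2.76, standard error 0.61, adjusted p = 0.0149) and Pfkfb3 (-1.56, adjusted p = 0.0469) fell. Taldo1 fell among 7 genes of the pentose phosphate branch (56.2 ± 8.22 CPM in KO and 146 ± 23.6 CPM in ctrl, -1.38, standard error 0.32, adjusted p = 0.0184), and G6pc3 among 6 gluconeogenic enzymes (-3.00, adjusted p = 0.0153). Pfkfb3 and G6pc3 were named after their values were seen, and their calls were not followed in the other settings or with libraries left out. None of the other glycolytic enzymes (19 tested), glucose transporters (8) or carriers of pyruvate and lactate (7) was called. The medians of these 3 lists in KO were -0.05, 0.62 and 0.36, and those of the regulators, the pentose phosphate branch and the gluconeogenic enzymes 0.41, -1.05 and -0.27, against 0.05 over all genes. The call of Myc was lost without ctrl replicate 3 or any 1 KO library (adjusted p up to 0.0715). That of Pdk3 was lost without ctrl replicate 2 or 3 or KO replicate 1 or 2 (up to 0.17), and that of Taldo1 without ctrl replicate 2 or 3 or any 1 KO library (up to 0.0895).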

How the data were processed

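The 30 window libraries and 11 genotype libraries were analysed from 2 tables of read counts per gene, which the authors deposited together with the gene lengths in bases ("Length", per the file headers). The column of 90-96hpi replicate 3 was read as the unit expected counts, because the last record of the deposited file (Nyx) is damaged there. That record was dropped, and all other values were whole, so no rounding changed a value. Per the submitters' processing notes, which give no order or role, the tools were Trim Galore 0.6.10, STAR 2.7.10a, SAMtools 1.12, Bowtie2 2.4.2, Picard 2.20.4 and deepTools 3.5.4, with the mouse build mm10 (GRCm38). The counting tool, the use of strand, the handling of multi-mapping reads and any selection of reads with T-to-C changes are not given in the sources used here. Of 61 samples, the 14 of chromatin accessibility and the 6 of an embryo-number test were not used. There were 0 columns of samples of no group.

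Genes were filtered (filterByExpr, minimum count 10, minimum total 15), scaled by TMM and tested with edgeR 4.0.16 in R 4.3.3 (quasi-likelihood F-test, robust). All window libraries were in 1 fit and all genotype libraries in another, with Benjamini-Hochberg adjusted p below 0.05 as the threshold. Levels are CPM from TMM-scaled totals. Standard errors are the absolute log2 fold change over the square root of F. Count ratios carry exact Clopper-Pearson-based intervals. Where a symbol of a list had several rows (Aldoa), the row with most reads was used. The members and the gene lists were chosen with earlier results of these data known. All 10 members were named, and from each other list at most the 2 genes with the smallest adjusted p in a contrast and at least 20 CPM in the higher group, with exceptions stated where they occur. Replicates of a group had correlations of log2 levels between 0.976 and 0.993 in the windows and between 0.913 and 0.980 in the genotypes, and no pair agreed within counting noise (chi-square per degree of freedom at least 4.39). The alternatives were DESeq2 1.42.0 (size factors and Wald test), scaling by total counts, no filter, the replicate number as a block, a fit of only the groups compared, a floor of 1 on the absolute log2 fold change and leaving out each library. The fitting code was tested on simulated data. Library totals limit the precision of the lowest genes, and intervals cover counting error only. Accompanying steps used Python 3.11.15 with pandas 2.3.3, numpy 2.4.6, scipy 1.17.1 and matplotlib 3.10.9.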

Additional observations from a re-analysis of the deposited data

How the results depend on the processing

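The 10 genes were followed in the 10 WT contrasts. A value counted as unchanged if it stayed uncalled, or stayed called in the same direction. The sign of values not called in either fit was not part of this count. Values were unchanged in 93 of 100 cases under DESeq2 size factors and 89 under scaling by total counts. They were unchanged in 90 under DESeq2's Wald test, 91 without the filter and 80 under a minimum of 1 on the absolute log2 fold change. The count was 81 of 95 in fits of only the groups compared, and 544 of 600 with 1 library left out. One called value reversed, Gpi1 at 48-54hpi against 30-36hpi, at -0.030 under total counts. Among values not called in either fit, 80 of 914 changed sign. Of 1182 values of Klf17 and of the genes picked by rule from the other pathway lists, 94 changed their call. Those genes were picked for the smallest adjusted p among called ones, so this count does not describe whole lists. Called counts over the 10 genes were 1 in place of 2 at 12-18hpi under total counts and with the minimum fold change. With that minimum they were also 2 at 18-24hpi, 5 at 24-30hpi, 1 at 30-36hpi and 3 at 48-54hpi, against 4, 8, 6 and 7. In KO against ctrl, 2 were called without the filter and 2 in the fit of only these groups, against 0.

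With 1 library left out, the counts lay between 4 and 5 at 0-6hpi, 1 and 3 at 6-12hpi, 1 and 2 at 12-18hpi, 3 and 4 at 18-24hpi, 7 and 9 at 24-30hpi, 4 and 6 at 30-36hpi, 7 and 8 at 48-54hpi, 6 and 8 at 70-76hpi and 6 and 7 at 90-96hpi. The count was 9 throughout at 90-96hpi against MII and 0 throughout in KO, mKO and pKO. Calls gained in this way, beside those in the text, were Hk2 at 0-6hpi (without MII replicate 3) and 12-18hpi (6-12hpi replicate 2), Gapdh at 18-24hpi (12-18hpi or 18-24hpi replicate 3) and Tpi1 at 24-30hpi (24-30hpi replicate 1) and 70-76hpi (70-76hpi replicate 3).

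Over all genes, the minimum fold change left 1716 of 3441 calls at 0-6hpi, 543 of 1243 at 6-12hpi, 879 of 2143 at 12-18hpi, 3382 of 5361 at 18-24hpi, 4903 of 7365 at 24-30hpi and 4164 of 6422 at 90-96hpi. Fits of only the groups compared called 3577 genes at 6-12hpi, 3628 at 12-18hpi and 3166 in KO, where the main count was 1358. In KO, 2237 were called without the filter and 2592 by DESeq2, and in mKO and pKO 47 and 4 without the filter, 32 and 2 by DESeq2 and 0 in the main count. Without mKO replicate 2, 110 were called in mKO. Under total counts the median of all genes shifted by 0.16 at 0-6hpi, 0.12 at 18-24hpi, 0.39 at 24-30hpi, -0.48 at 48-54hpi, 0.20 at 70-76hpi, 0.10 at 90-96hpi and 0.53 at 90-96hpi against MII, and 42 of 140 group means of the 10 genes moved by more than 1 SD. The cause of these changes was not tested.

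Replicate numbers are shared between groups, but the deviations of same-numbered libraries correlated between -0.072 and 0.164 in the windows (over 0.1 in 3 of 30 pairs of groups compared) and between -0.029 and 0.231 in the genotypes (4 of 8, all between mKO or pKO and ctrl). Not every pair was over 0.1 and the sources do not give the matings, so the numbers were not taken to pair the libraries. With the replicate number as a block, 99 of 100 WT values and 29 of 30 genotype values kept their call, and in KO 1 of the 10 genes (Gapdh) and 2064 of all genes were called. Transcripts with few reads (Ldha and Slc2a3 before 18 h) are limited by depth, and the genotype contrasts by 2 or 3 libraries a group.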
